A study of Homo sapiens with 24 samples.

Results

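The genes described here are 10 genes of the unfolded protein response of the endoplasmic reticulum (ER), chosen by name: HSPA5, HSP90B1, DNAJB9, HERPUD1, XBP1, SDF2L1, PDIA4, CALR, CRELD2 and MANF. They were chosen with earlier results of these data known. Shares of all genes printed beside their counts are therefore a description and not a test. All 10 were found among the 13236 gene groups of the deposited tables, none of them merged with a neighbouring gene, and together they comprise 95 of 164219 counted bins. All groups were HEK293T cells, an established human embryonic kidney line, given fresh medium 3 h before treatment. They received 10 µM OSMI-2, an inhibitor of OGT, the enzyme that attaches O-GlcNAc to proteins, or 5 µM TMG, an inhibitor of OGA (named MGEA5 in the tables), the enzyme that removes it. Treatment lasted 2 h or 6 h, and each drug and time had DMSO solvent controls of its own, giving 8 groups. The tables hold 23 libraries of polyadenylated RNA, 3 per group except OSMI-2 at 6 h with 2; a further library of that group was not analysed here. The labels do not say whether the libraries of a group are separate cultures, so p-values measure the spread between these libraries, which may be technical.

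Proteins that enter the ER are folded by chaperones and disulfide enzymes, and misfolded ones are sent back to the cytosol for degradation. When unfolded proteins accumulate, the sensors IRE1, PERK and ATF6 signal to the nucleus, and ATF6 and the spliced form of XBP1 raise the transcription of chaperone and degradation genes through elements such as the ER stress response element (ERSE). Many chaperones of the ER are themselves abundant in unstressed cells, so their transcripts can be followed in both directions.

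Promoter sequences are shown first because this element is what many members are known to share. The 250 bases before each annotated start were searched on both strands in the RefSeq promoters of GRCh38.p14, a different build from the hg19 of the count tables; all 10 members matched, with 12 promoter entries. Because the element is already known in many members, the shares of all promoters below are a description and not a test. A member was counted if any of its entries held the element, while the shares are over promoter entries. ERSE, which is CCAAT and CCACG with any 9 bases between them, was found in 5 members, beside 0.074% of 35116 promoters. ERSE-II, which is ATTGG and CCACG with any 1 base between them, was found in HERPUD1 and SDF2L1, beside 0.0513% of promoters. The core CCACG, which both elements contain, was present in all 10 members but also in 33.5% of promoters. UPRE, spelled TGACGTGG, was present in none of the members and in 0.612% of promoters. Each line below runs 5′ to 3′ on the strand of the gene, with the fixed letters of ERSE, or the whole of ERSE-II, in capitals (CGTGG and ATTGG where the element lies on the opposite strand).
HSPA5, chr9:125241376-125241424, minus strand: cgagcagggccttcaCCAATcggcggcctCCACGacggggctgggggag
HSP90B1, chr12:103930201-103930249, plus strand: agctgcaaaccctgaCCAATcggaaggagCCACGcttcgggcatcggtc
HSP90B1, chr12:103930306-103930354, plus strand: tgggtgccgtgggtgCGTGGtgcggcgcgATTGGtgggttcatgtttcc
CALR, chr19:12938369-12938417, plus strand: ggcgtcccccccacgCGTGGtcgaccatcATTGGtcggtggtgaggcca
CRELD2, chr22:49918539-49918587, plus strand: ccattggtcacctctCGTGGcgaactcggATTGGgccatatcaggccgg
XBP1, chr22:28800588-28800636, minus strand: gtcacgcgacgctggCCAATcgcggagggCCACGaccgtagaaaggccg
HERPUD1, chr16:56932010-56932050, plus strand: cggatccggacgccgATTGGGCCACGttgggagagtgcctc
SDF2L1, chr22:21642099-21642139, plus strand: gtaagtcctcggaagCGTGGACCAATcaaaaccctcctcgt

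HSP90B1 held ERSE at 2 places, with CCAAT beginning 194 bases before the start in 1 and the other, on the opposite strand, beginning 89 bases before it. The ERSE of HSPA5 began 66 bases before the start, that of CRELD2 80 bases and that of CALR 225 bases before it. XBP1 has 2 promoter entries, and the ERSE was in 1 of them, 52 bases before that start. DNAJB9, PDIA4 and MANF held neither ERSE nor ERSE-II in this window, which says only that these letters are not there.

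In hg19 the counted bins of HSPA5 span chr9:127997130-128003666, those of HSP90B1 chr12:104324204-104341707, of DNAJB9 chr7:108210190-108215297, of HERPUD1 chr16:56966003-56977796 and of XBP1 chr22:29190541-29196560. Those of SDF2L1 span chr22:21996543-21998591, of PDIA4 chr7:148700152-148725782, of CALR chr19:13049415-13055306, of CRELD2 chr22:50312284-50321191 and of MANF chr3:51422693-51426831.

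Levels are given as CPM, a gene's counts per 1000000 bin counts of the library; library totals ran from 39465746 to 100161560 bin counts. Per kilobase of counted bins, and on plain library totals, CALR, the calcium-binding chaperone calreticulin, had the highest level of the members in DMSO at 2 h of both experiments: 812 ± 68.6 CPM per kb (SD, n = 3) in the OSMI-2 experiment and 1610 ± 74.1 (SD, n = 3) in the TMG experiment. DNAJB9, an ER co-chaperone of HSPA5, had the lowest, at 0.885 ± 0.229 and 4.80 ± 0.16 CPM per kb (SD, n = 3). In the TMG experiment the order below CALR was HSP90B1 (GRP94, the HSP90 of the ER) at 968 ± 26.5, HSPA5 (BiP, the main HSP70 of the ER) at 240.0 ± 10.7, PDIA4 (ERp72, a protein disulfide isomerase) at 214 ± 9.01 and MANF (a secreted and ER-resident survival factor) at 114 ± 1.96 CPM per kb. Below these came SDF2L1 (an ER protein found in chaperone complexes) at 77.5 ± 2.43, CRELD2 (a disulfide isomerase-like protein) at 77.2 ± 3.97 and XBP1 (the transcription factor) at 70.7 ± 4.30, and the libraries of SDF2L1 overlapped those of CRELD2, as did those of CRELD2 and XBP1. HERPUD1, a membrane protein of ER-associated degradation, was lower, at 13.4 ± 0.30. In the OSMI-2 experiment each neighbour from HSP90B1 (126 ± 2.75) down to CRELD2 (51.4 ± 3.72) overlapped the next. A read that touches several bins is counted in each, so genes of many short exons are weighted up in this order.

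The experiments differed in the members' levels before any drug effect. On plain library totals in DMSO at 2 h, HSP90B1 had a mean of 2751 CPM in the TMG experiment and 357 CPM in the OSMI-2 experiment, 7.71 times as much. DNAJB9 was 5.43 times as high in the TMG experiment (11.1 against 2.05 CPM), PDIA4 3.53 times and HSPA5 2.42 times. XBP1 stood at 1.01 times, and HERPUD1 and SDF2L1 were lower there, at 0.683 and 0.702 times. The GC content, as the mean over each gene's annotated GENCODE transcripts, was lowest in HSP90B1 (42.8%) and DNAJB9 (43.6%) and highest in SDF2L1 (66.2%). Over 11253 genes, the slope of log2 CPM on GC content was 0.382 to 1.17 per 10 points in the OSMI-2 experiment and between -0.650 and -0.318 in the TMG experiment, and its part in these level differences was not tested. The experiments are therefore compared below only through their own controls.

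**Figure D1:**
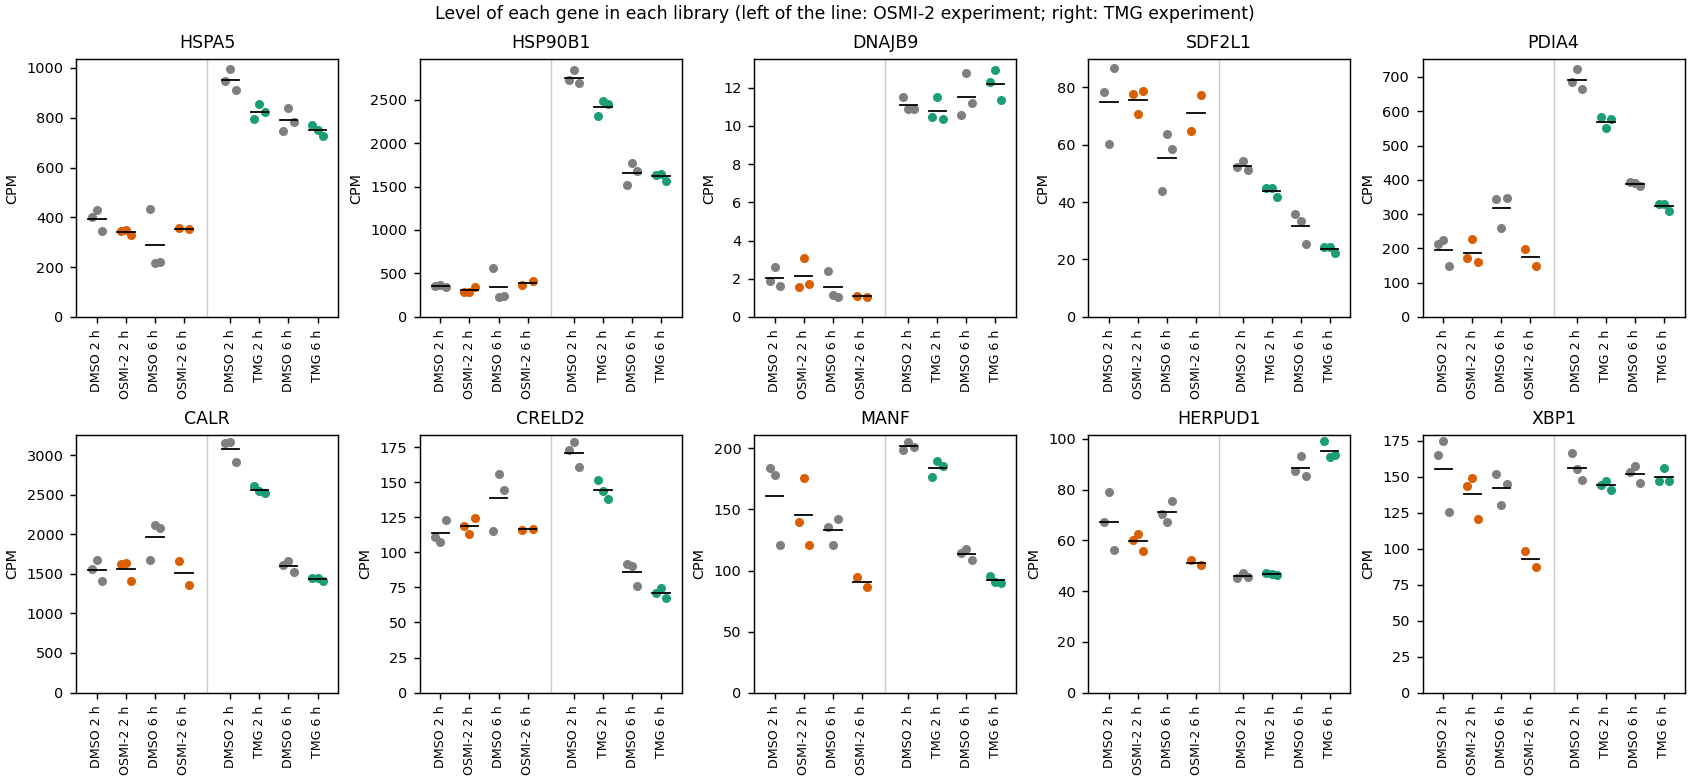
Level of each of the 10 genes in CPM on plain library totals (linear axis from 0) in each of the 23 libraries; points are libraries, black lines are group means, and the grey line separates the OSMI-2 from the TMG experiment. In the TMG experiment HSP90B1 lies at a mean of 2751 CPM in DMSO at 2 h and 1656 CPM at 6 h, while HERPUD1 goes from 46.0 to 88.6 CPM.

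The transcripts of the targeted enzymes, which the inhibitors do not delete, are given with edgeR's quasi-likelihood test and Benjamini-Hochberg adjustment. No expected direction is stated for them, so they are not a check that the drugs acted. With OSMI-2 at 6 h OGT changed by -1.85 (SE 0.33) on the log2 scale and MGEA5 by -1.93 (SE 0.33), with adjusted p of 0.000346 and 0.000136. TMG at 6 h changed OGT by -0.48 (SE 0.07) and MGEA5 by 0.72 (SE 0.06), with edgeR adjusted p of 0.00164 and 6.01e-06. At 2 h neither transcript passed with either drug. OSMI-2 gave 0.57 (SE 0.26) for OGT and -0.63 (SE 0.20) for MGEA5 (edgeR, adjusted p 0.9996 for both), and TMG gave -0.04 (SE 0.05) and 0.14 (SE 0.05; edgeR, adjusted p 0.708 and 0.0848). VIM, PAX2, NEFL, NEFM, KRT8 and KRT18, which the line is known to express, were all counted. Of these NEFM (0.273 to 2.77 CPM) and PAX2 (1.14 to 4.31 CPM) were low, with library sizes scaled over all libraries. The 5 markers of blood, liver, endothelium and fibroblasts had no row in the tables, and a missing row does not show that a gene is silent. The 3 DMSO libraries of the OSMI-2 experiment at 6 h stood apart, with 0.756% to 1.21% of their counts in detained introns against 0.232% to 0.328% in the other 8 libraries of that experiment. Among those 3, library a also had the lowest GC slope, 0.382 against 1.09 and 1.17.

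TMG lowered 7 of the 10 members within 2 h: HSPA5, HSP90B1, SDF2L1, PDIA4, CALR, CRELD2 and MANF. None rose, and the remaining members, DNAJB9, HERPUD1 and XBP1, had negative estimates that did not pass. The test was edgeR's quasi-likelihood test on counts, with a Benjamini-Hochberg adjusted p under 0.05 over 12361 genes; 6.67% of all genes passed as lower and 7.91% in either direction. The falls were small, from -0.17 to -0.32 on the log2 scale. The median of the members was -0.24, beside -0.03 over all genes tested. Detained introns took 0.475% to 0.543% of counts with TMG and 0.377% to 0.443% with DMSO, and their part in these falls was not tested. No member passed in a fit of all 23 libraries, which shares 1 estimate of the spread with the OSMI-2 experiment.

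In what follows, CPM beside a fold change use the library size scaled for that comparison (TMM), so a library's value can differ slightly between comparisons. CALR had 3278, 3164 and 2923 CPM in the DMSO libraries at 2 h and 2556, 2513 and 2511 CPM with TMG. Its groups did not overlap, and the log2 fold change was -0.30 (SE 0.05; edgeR, Benjamini-Hochberg adjusted p 0.000715). HSP90B1 had 2836, 2832 and 2698 CPM with DMSO and 2255, 2443 and 2438 CPM with TMG. All TMG libraries again lay below all DMSO libraries, with a log2 fold change of -0.23 (SE 0.05; edgeR, adjusted p 0.00514).

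HSPA5, the chaperone whose release activates the sensors, had 986, 996 and 915 CPM with DMSO and 779, 841 and 821 CPM with TMG, a log2 fold change of -0.25 (SE 0.05; edgeR, adjusted p 0.00417). PDIA4 had the largest fall among the members, from 712, 723 and 668 CPM to 569, 544 and 574 CPM, a log2 fold change of -0.32 (SE 0.05; edgeR, adjusted p 0.000647). In neither gene did a TMG library reach the lowest DMSO library. SDF2L1 had 54.5, 54.3 and 51.3 CPM with DMSO and 43.7, 44.2 and 41.4 CPM with TMG, a log2 fold change of -0.31 (SE 0.06; edgeR, adjusted p 0.00167). CRELD2 had 180.1, 178 and 162 CPM with DMSO and 149, 142 and 138 CPM with TMG, a log2 fold change of -0.28 (SE 0.05; edgeR, adjusted p 0.00186). MANF showed the smallest fall that passed, from 207, 205 and 202 CPM to 173, 187 and 185 CPM, a log2 fold change of -0.17 (SE 0.05; edgeR, adjusted p 0.0310). For these 3 genes, too, no TMG library reached a DMSO library.

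XBP1 was lower in all 3 TMG libraries (141, 145 and 141 CPM) than in the DMSO libraries (173, 155 and 148 CPM), but its log2 fold change of -0.16 (SE 0.05) did not pass (edgeR, adjusted p 0.0709). The bins do not separate the spliced from the unspliced form of XBP1, so IRE1 activity cannot be read from them. HERPUD1 had 47.1, 47.2 and 45.8 CPM with DMSO and 46.2, 45.9 and 46.3 CPM with TMG, a log2 fold change of -0.02 (SE 0.06; edgeR, adjusted p 0.893). DNAJB9, at 495 to 614 counts per library, had a log2 fold change of -0.08 (SE 0.08; edgeR, adjusted p 0.581). The groups of these last genes overlapped. Of the 5 members with an ERSE 4 fell, and of the 5 without it 3 fell; of the 2 with ERSE-II, SDF2L1 fell and HERPUD1 did not pass.

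The fall was spread along the transcripts. In each of the 7 genes every exon bin with a mean of at least 50 counts was lower with TMG on plain library totals: 9 of 9 bins in HSPA5, 19 of 19 in HSP90B1, 13 of 13 in CALR, 11 of 11 in CRELD2, 10 of 10 in PDIA4, 5 of 5 in MANF and 3 of 3 in SDF2L1. The bins of a gene share reads and are not replicates. The 7 genes were called on the sum of their bins, and the share of all genes with every bin lower was not counted. In 2 members that did not pass, all such bins were lower as well: 6 of 6 in XBP1 and 1 of 1 in DNAJB9. HERPUD1 differed, with 6 of 9 bins higher and 3 lower, between -0.23 and 0.13. By the authors' deposited table, which tests whether a bin changes relative to its gene, 0 of 90 exon bins of the members with an adjusted p passed with TMG at 2 h, beside 0.14% of all exon bins.

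**Figure D2:**
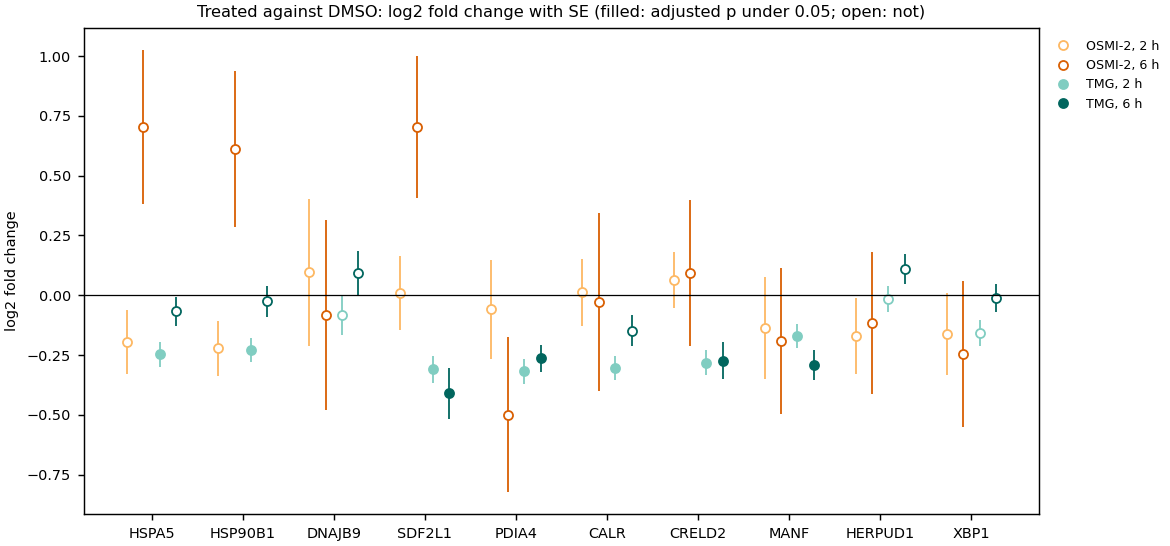
Log2 fold change of each gene in treated against DMSO libraries, with SE bars from edgeR, for both drugs and times; filled points have an adjusted p under 0.05 and open points do not. The TMG 2 h points are all below 0, from -0.32 (PDIA4) to -0.02 (HERPUD1), and the OSMI-2 6 h points have the widest bars.

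At 6 h of TMG, 4 members were lower than in their DMSO controls: SDF2L1, PDIA4, CRELD2 and MANF. In this comparison 4.84% of 12103 genes passed as lower and 6.03% in either direction (edgeR, Benjamini-Hochberg adjusted p under 0.05). The median of the members was -0.11, beside -0.03 over all genes. PDIA4 had 405, 379 and 379 CPM with DMSO and 333, 327 and 310.2 CPM with TMG, a log2 fold change of -0.26 (SE 0.06; edgeR, adjusted p 0.0123). MANF had 118, 114 and 108 CPM with DMSO and 96.5, 90.4 and 90.2 CPM with TMG, a log2 fold change of -0.29 (SE 0.06; edgeR, adjusted p 0.0133). Both genes were lower in all TMG libraries than in any control.

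SDF2L1 had 36.8, 32.5 and 25.1 CPM with DMSO and 24.8, 24.2 and 22.2 CPM with TMG at 6 h, a log2 fold change of -0.41 (SE 0.11; edgeR, adjusted p 0.0326). CRELD2 had 94.7, 87.8 and 75.8 CPM with DMSO and 71.9, 74.3 and 67.5 CPM with TMG, a log2 fold change of -0.27 (SE 0.08; edgeR, adjusted p 0.0448). The lowest DMSO library of each was only just above the TMG libraries. CALR was at -0.15 (SE 0.06; edgeR, adjusted p 0.181), with its groups apart, and HSPA5 at -0.07 (SE 0.06) and HSP90B1 at -0.03 (SE 0.07), with theirs overlapping. The count of 4 fell to 0 without TMG library b or without TMG library c, to 2 without TMG library a or without DMSO library b, and to 0 when all libraries were fitted together. None of the members' 86 exon bins with an adjusted p in the authors' deposited table passed at 6 h of TMG, beside 0.0565% of all exon bins.

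Whether the TMG effect differed between 6 h and 2 h was tested as an interaction. It passed for 0 of the 10 members and for 3 of 12399 genes (0.0242%; edgeR, Benjamini-Hochberg adjusted p under 0.05); 3 members and 1034 genes had an unadjusted p under 0.05. The differences ran from -0.10 (MANF) to 0.22 (HSP90B1) on the log2 scale. In HSP90B1, HSPA5 and CALR the fall at 2 h was thus not shown to be larger than the value at 6 h (edgeR adjusted p 0.475, 0.513 and 0.587).

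OSMI-2 for 2 h changed none of the 10 members, and 0 of 12343 genes passed (0%; edgeR, Benjamini-Hochberg adjusted p under 0.05). At an unadjusted p under 0.05 there were 0 members and 160 genes. The estimates ran from -0.22 in HSP90B1 to 0.10 in DNAJB9. HSP90B1 had 373, 354 and 343 CPM with DMSO and 287, 305 and 325 CPM with OSMI-2 (edgeR, adjusted p 0.9996). CALR had 1626, 1635 and 1393 CPM with DMSO and 1635, 1732 and 1329 CPM with OSMI-2, a difference of 0.01 (SE 0.14). The standard errors of the members, 0.11 to 0.31, were wider than those of 0.05 to 0.08 in the TMG experiment at 2 h, where falls of 0.17 to 0.32 passed. Of the members' 92 exon bins, 0 passed with OSMI-2 at 2 h in the authors' deposited table, beside 0.00893% of all exon bins.

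At 6 h of OSMI-2 no member passed in the reported fit, beside 4.94% of 12484 genes (edgeR, Benjamini-Hochberg adjusted p under 0.05), and 2 members had an unadjusted p under 0.05. The median of the members was -0.06, beside 0.15 over all genes, and the all-gene median itself ran from -0.24 with plain library totals to 0.35 in the fit of all libraries. The estimates were spread more widely than at any other drug and time, from -0.50 in PDIA4 to 0.70 in HSPA5. HSPA5 had 333, 204 and 226 CPM with DMSO and 420.5 and 408 CPM with OSMI-2, a log2 fold change of 0.70 (SE 0.32; edgeR, adjusted p 0.168). SDF2L1 had 33.7, 59.4 and 59.7 CPM with DMSO and 76.1 and 89.5 CPM with OSMI-2, a log2 fold change of 0.70 (SE 0.30; edgeR, adjusted p 0.133). In both genes the OSMI-2 libraries lay above all DMSO libraries on this scale, while the DMSO libraries differed widely among themselves. On plain library totals this held for SDF2L1 but not for HSPA5. HSPA5 then had 433 CPM in DMSO library a, above the 357 and 352 CPM with OSMI-2.

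HSP90B1 had 431, 218 and 244 CPM with DMSO and 431 and 478 CPM with OSMI-2, so DMSO library a was level with the lower OSMI-2 library (log2 fold change 0.61, SE 0.33; edgeR, adjusted p 0.247). PDIA4 went the other way, with 265, 243 and 355 CPM for DMSO and 235 and 173 CPM for OSMI-2 (-0.50, SE 0.32; edgeR, adjusted p 0.351). On plain library totals HSP90B1 had 560 CPM in DMSO library a, above the 366 and 413 CPM with OSMI-2. The outcome turned on DMSO library a, which was the highest DMSO library for HSPA5 and HSP90B1 and the lowest for SDF2L1. Without it 3 members passed as higher: HSP90B1 at 1.02, HSPA5 at 0.99 and SDF2L1 at 0.52 (edgeR, adjusted p 0.00205, 0.00205 and 0.0127), while PDIA4 was at -0.50 (adjusted p 0.103). With the GC trend of each library removed HSPA5 and HSP90B1 passed (0.80 and 0.68; edgeR, adjusted p 0.00925 and 0.0113) and SDF2L1 was at 0.25 (adjusted p 0.133). The shares of all genes that passed in these refits are not printed here, so the counts of members in them are not results about the members. The part of RNA quality in these values was not tested.

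**Figure D3:**
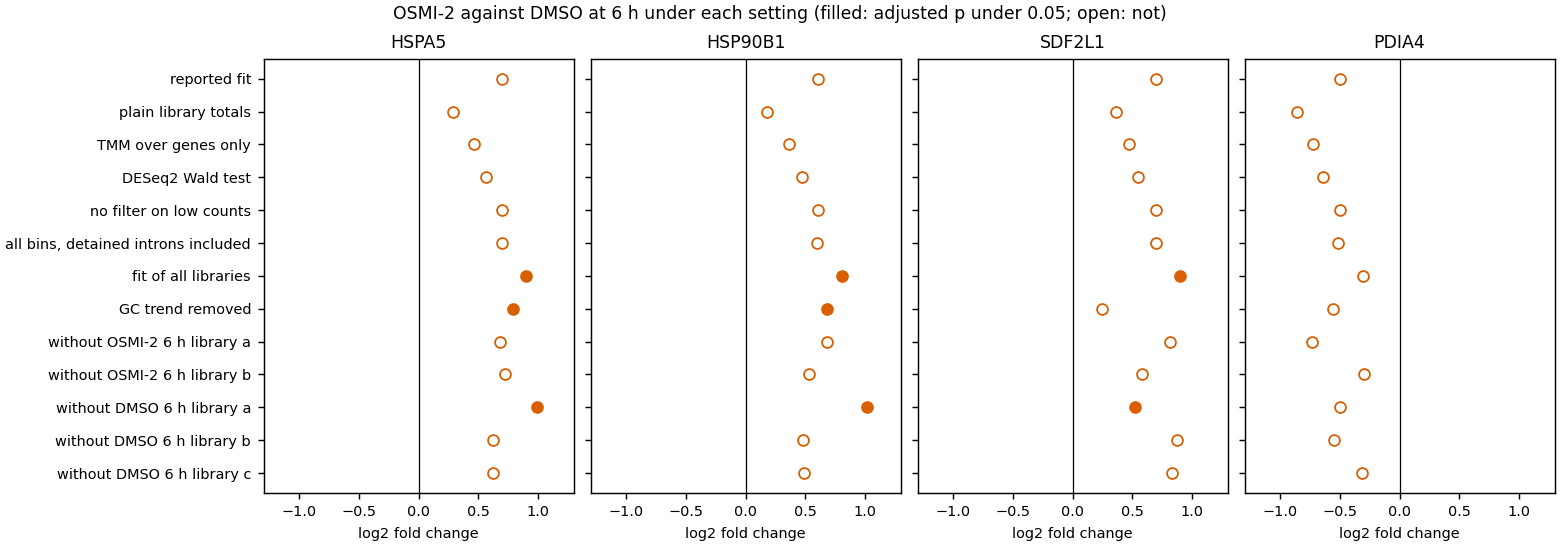
Log2 fold change of HSPA5, HSP90B1, SDF2L1 and PDIA4 in OSMI-2 against DMSO libraries at 6 h in the reported fit, under each alternative setting and without each library in turn; filled points have an adjusted p under 0.05 and open points do not. HSPA5, HSP90B1 and SDF2L1 are above 0 and PDIA4 is below 0 in every setting, and filled points appear after removal of the GC trend, without DMSO library a and when all libraries were fitted together.

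The distribution of counts along the members also differed at 6 h of OSMI-2. The share of a gene's counts in its first exon bin had a higher mean with OSMI-2 than with DMSO in 10 of 10 members, beside 74.9% of 10960 genes with at least 2 exon bins and a mean of at least 50 counts. In 5 of them (CALR, HERPUD1, MANF, SDF2L1 and XBP1) every OSMI-2 library was above every DMSO library, as in 28.2% of those genes. In MANF the share was 7.93% ± 0.12 (SD, n = 2) with OSMI-2 and 6.22% ± 0.49 (SD, n = 3) with DMSO. In HERPUD1 it was 9.07% ± 0.48 (SD, n = 2) and 7.08% ± 0.78 (SD, n = 3). With OSMI-2 at 2 h the mean was higher in 5 of 10 members (52.3% of genes), and with TMG it was higher in 1 of 10 at 2 h and in 1 of 10 at 6 h (36.6% and 38% of genes). At each time of TMG all treated libraries were below all DMSO libraries in 2 members, beside 9.42% of genes at 2 h and 7.97% at 6 h. Of the members' 90 exon bins with an adjusted p in the authors' deposited table, 9 passed at 6 h of OSMI-2, 6 higher and 3 lower, beside 4.08% of all exon bins in either direction. Over all genes, the ratio of counts in constitutive first exons to those in constitutive last exons was 0.210 to 0.251 in these DMSO libraries and 0.272 to 0.283 with OSMI-2. The shift in the members was thus accompanied by a shift over all genes, and its part in their values was not tested.

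The share of members in which the drugs' effects differed at 6 h was that of all genes: 2 of 10 members passed, HSPA5 and SDF2L1, both higher with OSMI-2, beside 16.9% of 12563 genes passing as higher and 19.9% in either direction (edgeR, Benjamini-Hochberg adjusted p under 0.05). At 2 h the difference passed for 0 of the 10 members and 0 of 12608 genes (0%; edgeR, Benjamini-Hochberg adjusted p under 0.05), with 2 members and 1025 genes at an unadjusted p under 0.05. The difference of log2 fold changes at 6 h was 1.26 (SE 0.31) in SDF2L1, which was at 0.70 with OSMI-2 and -0.41 with TMG in the separate fits, and 0.93 (SE 0.26) in HSPA5, at 0.70 and -0.07 (edgeR, adjusted p 0.0185 and 0.0272). The median difference was 0.27 over the members, below the 0.36 over all genes. The count of 2 was 0 with TMM over genes only and 1 with DESeq2. It ran from 0 to 7 when single libraries were left out, with 7 without DMSO library a of the OSMI-2 experiment. It was 0 without OSMI-2 library b, TMG library b or c, or DMSO library a of the TMG experiment, and 1 without OSMI-2 library a, TMG library a or DMSO library b or c of the TMG experiment. The OSMI-2 effect at 6 h against 2 h passed for 0 members (0.111% of 12627 genes). It was 0.85 (SE 0.31) in HSPA5 and 0.78 (SE 0.34) in HSP90B1 (edgeR, adjusted p 0.223 and 0.297). These 2 members passed without DMSO 6 h library a of the OSMI-2 experiment. The shares of all genes that passed in the refits of this paragraph are not printed here, so those counts are not results about the members.

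Between 2 h and 6 h in the TMG experiment, 7 members fell and HERPUD1 rose in the DMSO controls, which received no drug. Time in DMSO and time since the change of medium cannot be told apart, because both grew together. Many genes moved in this comparison: 29.6% of 12294 genes passed as lower, 16.3% as higher and 45.9% in either direction (edgeR, Benjamini-Hochberg adjusted p under 0.05). The median of the members was -0.79, beside -0.07 over all genes. The libraries also differed without overlap between these times: the first-to-last exon ratio was 0.299 to 0.322 at 2 h and 0.233 to 0.276 at 6 h, the GC slope -0.366 to -0.318 and then -0.611 to -0.425, and detained introns 0.377% to 0.443% and then 0.462% to 0.669% of counts. Their part in the members' changes was not tested.

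CRELD2 fell from 181, 179.5 and 163 CPM at 2 h to 93.1, 85.9 and 74.6 CPM at 6 h, a log2 fold change of -1.05 (SE 0.08; edgeR, adjusted p 3.55e-10). CALR fell from 3300, 3185 and 2943 CPM to 1629, 1571 and 1491 CPM, a log2 fold change of -1.01 (SE 0.07; edgeR, adjusted p 1.32e-10). In both, the highest library at 6 h was far below the lowest at 2 h. PDIA4 and MANF each fell by 0.89 (SE 0.07 in both), SDF2L1 by 0.80 (SE 0.10), HSP90B1 by 0.79 (SE 0.07) and HSPA5 by 0.33 (SE 0.07), with edgeR adjusted p of at most 0.000404. HSPA5 thus had the smallest of the falls, from 993, 1002 and 921 CPM to 757, 796 and 765 CPM.

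HERPUD1 had 47.4, 47.5 and 46.1 CPM at 2 h and 88.7, 88.4 and 83.3 CPM at 6 h, a log2 fold change of 0.89 (SE 0.07; edgeR, adjusted p 9.81e-10). All 9 of its exon bins with a mean of at least 50 counts were higher at 6 h, by 0.59 to 1.16, whereas all 13 bins of CALR were lower, by 0.88 to 1.27. XBP1, at 174, 156 and 149 CPM and then 156, 149.7 and 142 CPM, and DNAJB9, at 10.95 to 12.1 and then 10.7 to 12.1 CPM, overlapped between the times and did not pass (edgeR, adjusted p 0.274 and 0.926).

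The TMG libraries gave the same directions for these 8 members, from libraries separate from the DMSO ones: HERPUD1 rose by 1.02 (SE 0.05), and the 7 falls ran from -0.14 (SE 0.05) in HSPA5 to -1.03 (SE 0.05) in CRELD2, with edgeR adjusted p of at most 0.0123. The same library measures moved here too, with detained introns at 0.475% to 0.543% at 2 h and 0.580% to 0.668% at 6 h. Of 12258 genes, 35.3% passed as lower, 23.2% as higher and 58.5% in either direction. HERPUD1 had 46.6, 46.7 and 47.2 CPM with TMG at 2 h and 99.7, 91.9 and 93.7 CPM at 6 h. MANF fell from 174, 190.1 and 188 CPM to 96.1, 89.97 and 90.2 CPM, a log2 fold change of -0.999 (SE 0.05). The drug comparison at 2 h and the time comparison in DMSO share the DMSO libraries of 2 h, so the falls they have in common are not independent.

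In the OSMI-2 experiment 4 members fell between 2 h and 6 h of DMSO: HSPA5, DNAJB9, SDF2L1 and MANF, beside 14% of 12343 genes passing as lower and 18.5% in either direction (edgeR, Benjamini-Hochberg adjusted p under 0.05). The median of the members was -0.67, beside -0.25 over all genes. The 6 h libraries here are those that stood apart, with 0.756% to 1.21% of counts in detained introns against 0.239% to 0.276% at 2 h; its part in the falls was not tested. HSPA5 fell from 496, 498 and 433 CPM to 300.0, 188 and 208 CPM, a log2 fold change of -1.04 (SE 0.27; edgeR, adjusted p 0.00976). DNAJB9, which did not pass over time in the TMG experiment, fell from 2.31, 3.05 and 2.04 CPM to 1.68, 0.994 and 0.991 CPM, at 57 to 114 counts per library (-1.01, SE 0.33; edgeR, adjusted p 0.0315). Whether that differs between the experiments was not tested.

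HERPUD1 had 82.6, 91.1 and 70.4 CPM at 2 h and 48.8, 57.9 and 71.1 CPM at 6 h of DMSO in the OSMI-2 experiment, a log2 fold change of -0.46 (SE 0.25; edgeR, adjusted p 0.194). PDIA4 and CALR, which fell in the TMG experiment, were at 0.16 (SE 0.27) and -0.19 (SE 0.30) with overlapping groups. On plain library totals both were higher at 6 h without overlap. PDIA4 then had 149 to 225 CPM at 2 h and 261 to 348 CPM at 6 h. CALR had 1415 to 1676 and then 1680 to 2117 CPM, and the mean of HERPUD1 went from 67.4 to 71.1 CPM. These values depended on the scaling: the count of 4 was 0 with plain library totals and with TMM over genes alone, where the all-gene median was at 0.32 in the former, 1 with DESeq2 and 7 when all libraries were fitted together. It was 0 without DMSO 2 h library a, 1 without DMSO 2 h library b or DMSO 6 h library b, and 2 without DMSO 2 h library c. In the OSMI-2 libraries 0 members passed between 2 h and 6 h, nor did any of 12492 genes (0%), with 4 members and 3621 genes at an unadjusted p under 0.05; 3 members passed with plain library totals, with DESeq2 and when all libraries were fitted together, and 2 without OSMI-2 2 h library c. XBP1 had 152, 165 and 119 CPM with OSMI-2 at 2 h and 95.9 and 78.5 CPM at 6 h, a difference of -0.74 (SE 0.17; edgeR, adjusted p 0.0806).

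**Figure D4:**
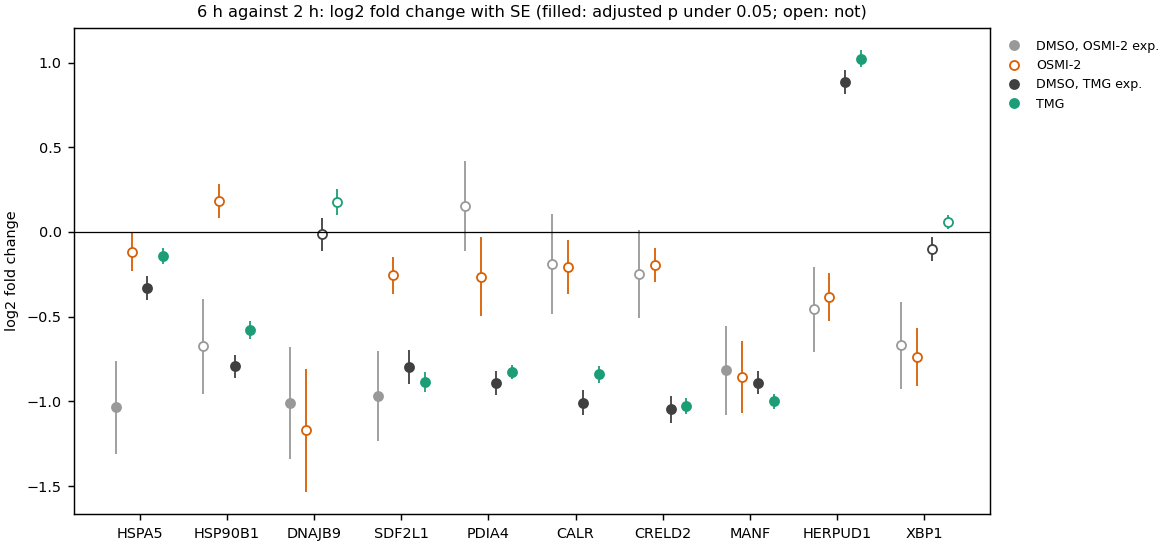
Log2 fold change of each gene at 6 h against 2 h, with SE bars from edgeR, in the DMSO and treated libraries of both experiments; filled points have an adjusted p under 0.05 and open points do not. In the TMG experiment HERPUD1 is at 0.89 and 1.02 while 7 other genes lie between -1.05 and -0.14.

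Other genes of ER protein folding were counted from 4 lists that leave out the 10 members. These lists, too, were chosen with earlier results of these data known, so the shares beside their counts are a description. Of all 12361 genes tested with TMG at 2 h, 6.67% passed as lower and 7.91% in either direction. With TMG at 2 h, 14 of 24 further ER chaperones, disulfide and prolyl enzymes fell and none rose, with a list median of -0.20 beside -0.03 over all genes. Its largest falls were SIL1, the nucleotide exchange factor of HSPA5, at -0.40 (SE 0.06), and CRELD1, the paralog of CRELD2, at -0.33 (SE 0.08). Of 21 genes of ER-associated degradation, the pathway of HERPUD1, 7 fell and none rose (median -0.15), led by DERL3 at -0.41 (SE 0.06). Of 24 genes of translocation into the ER, 5 fell and 1 rose (median -0.10), and of 13 sensors and transducers, which act upstream of the members, 2 fell, CREB3L2 at -0.22 (SE 0.07) and ATF6B at -0.20 (SE 0.05). These genes had edgeR adjusted p of 0.000626 to 0.0377.

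At 6 h of TMG each of the first 3 lists had 1 gene lower and none higher, and the sensors had none in either direction. There 4.84% of all genes passed as lower and 6.03% in either direction, so these counts say nothing about the lists. With OSMI-2 at 2 h no gene of any list passed, nor did any gene at all (0%). With OSMI-2 at 6 h, 1 of 24 chaperones and enzymes (TXNDC12, -1.34), 2 of 21 degradation genes (DERL2, -1.57, and SEL1L, a core component of the degradation complex, 1.25), 1 of 24 translocation genes (SRPRB, -1.16) and 0 of 13 sensors passed, with edgeR adjusted p of 0.00194 to 0.0303. In that comparison 4.94% of all genes passed, and nothing about the lists is read from these counts. In the DMSO controls of TMG, 13 of 24 chaperones and enzymes fell from 2 h to 6 h and 4 rose, beside 29.6% and 16.3% of all genes, with a list median of -0.38 beside -0.07. Among those that fell was HYOU1, an ER HSP70-like exchange factor of HSPA5, at -0.79 (SE 0.07). Of the 13 sensors and transducers 2 rose and 2 fell in that comparison, and nothing about the list is read from these counts. ATF4, the transcription factor of the PERK branch, rose by 0.64 (SE 0.08) and DDIT3, its target CHOP, by 0.74 (SE 0.14). ATF6B fell by 0.72 (SE 0.08) and CREB3 by 0.26 (SE 0.07). PERK activity was not tested. Of 21 degradation genes 4 rose and 4 fell, with a list median of -0.01, and nothing about this list is read from these counts. EDEM3 rose by 0.35 (SE 0.08) and HERPUD2, the paralog of HERPUD1, by 0.29 (SE 0.08), while DERL3 fell by 2.02 (SE 0.09) and NPLOC4 by 0.28 (SE 0.08), with edgeR adjusted p of at most 0.00534.

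Detained introns, introns that stay in polyadenylated transcripts held in the nucleus, were annotated in 3 members. They are HSP90B1_E015 (hg19 12:104337098-104337515, plus strand, 418 bases), PDIA4_E004 (7:148703149-148705250, minus strand, 2102 bases) and CRELD2_E009 (22:50317434-50318007, plus strand, 574 bases). With OSMI-2 at 6 h all 3 were lower than with DMSO, as were 86.3% of 4677 introns tested, with 86.9% passing in either direction (edgeR, Benjamini-Hochberg adjusted p under 0.05). HSP90B1_E015 held 1.17%, 1.21% and 1.31% of the counts of HSP90B1 with DMSO and 0.321% and 0.373% with OSMI-2. PDIA4_E004 held 2.56%, 3.82% and 2.52% with DMSO and 1.05% and 1.74% with OSMI-2, and CRELD2_E009 3.15%, 1.61% and 1.93% with DMSO and 0.627% and 0.725% with OSMI-2. In none of them did an OSMI-2 library reach a DMSO library, and the share of all introns with groups so apart was not counted.

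As levels, the introns changed by -1.19 (SE 0.29) in HSP90B1_E015, -1.60 (SE 0.29) in PDIA4_E004 and -1.52 (SE 0.31) in CRELD2_E009, beside a median of -1.55 over all introns (edgeR, adjusted p 0.000124, 1.54e-07 and 4.40e-06). Relative to their gene they changed by -1.82, -1.10 and -1.65, beside a median of -1.63, where 89% of 4616 introns were lower (limma, adjusted p 1.37e-05, 0.00284 and 5.43e-05). The changes were thus of the size of the median intron, or smaller relative to the gene in PDIA4_E004. In the authors' deposited table all 3 passed as well, with log2 fold changes of -1.76, -1.08 and -1.59. With TMM computed over the introns only, which removes a change common to most introns, they were at 0.30, -0.14 and -0.06 and none passed. The DMSO libraries at 6 h were themselves high in introns: HSP90B1_E015 held 0.446% to 0.4998% of its gene in DMSO at 2 h of the same experiment.

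None of the 3 introns passed with OSMI-2 at 2 h, where 0.129% of 3107 introns passed, with TMG at 2 h (9.81% of 4056) or with TMG at 6 h (0.19% of 4219), by the same edgeR test. With TMG at 2 h, where their genes fell, PDIA4_E004 was at -0.01 (SE 0.15), HSP90B1_E015 at 0.10 (SE 0.13) and CRELD2_E009 at -0.01 (SE 0.19), below the median of 0.29 over all introns. Relative to their gene they were at 0.33, 0.33 and 0.28, near the median of 0.30 over all introns (limma, adjusted p 0.355, 0.332 and 0.347; 0.124% of 4031 introns passed). In DMSO of the TMG experiment PDIA4_E004 made up 0.313%, 0.429% and 0.490% of PDIA4 counts at 2 h and 1.35%, 1.78% and 1.40% at 6 h, and CRELD2_E009 0.648% to 0.700% and then 1.76% to 1.92% of CRELD2 counts. As mean levels on plain library totals, PDIA4_E004 went from 2.83 to 5.88 CPM and CRELD2_E009 from 1.15 to 1.57 CPM. The genes themselves fell, PDIA4 from 691 to 389 CPM and CRELD2 from 171 to 86.2 CPM, which also raises the shares. Detained introns over all genes took 0.377% to 0.443% of counts in these libraries at 2 h and 0.462% to 0.669% at 6 h, and the change over time in the members was not tested.

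**Figure D5:**
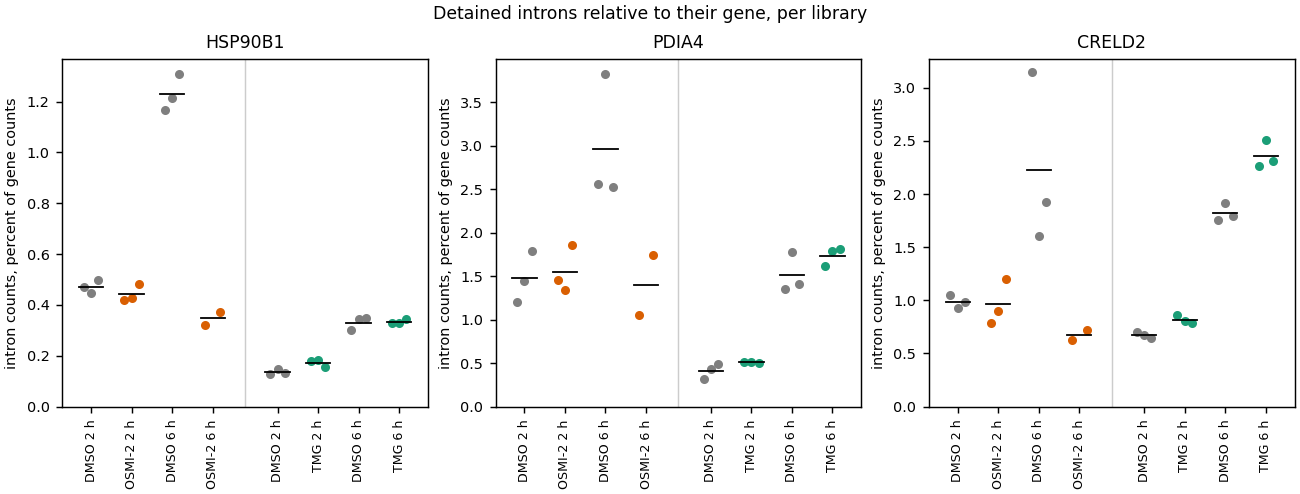
Counts of the detained intron as a percent of the counts of its gene in each library, for HSP90B1_E015, PDIA4_E004 and CRELD2_E009 (linear axis from 0); points are libraries, black lines are group means and the grey line separates the experiments. In the OSMI-2 experiment the DMSO 6 h libraries of HSP90B1_E015 lie between 1.17% and 1.31%, above the other libraries of that experiment, which lie at 0.4998% or below.

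Across the 23 libraries, with levels centred within each experiment, the members did not all vary alike. The Pearson correlation of a member with the mean of the standardised members was 0.92 for MANF, 0.85 for SDF2L1 and 0.78 for HSPA5, and lowest for HERPUD1 at -0.16; each member is part of that mean. Among 11253 genes the 5 non-members most like that mean were ANAPC16 (0.95), SRSF2 (0.95), HNRNPAB (0.94), WSB2 (0.94) and HSPA1B (0.94), the last of which has a near-identical copy and is uncertain. The value for HERPUD1 pools experiments that differed. Within the OSMI-2 experiment it correlated positively with every other member, from 0.26 (HSP90B1) to 0.94 (XBP1). Within the TMG experiment its correlation was negative with all but DNAJB9 (0.75) and XBP1 (0.56), down to -0.98 with MANF. The libraries share depth, GC slope and the time groups, so these values describe only this set of libraries.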

How the data were processed

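PolyA-selected RNA of HEK293T cells was sequenced as stranded libraries; RNA was taken with Trizol or RNeasy, and which sample had which is not stated per the labels' protocols. Reads were aligned with STAR to hg19, per the submitters' processing notes. The 4 deposited tables hold whole-number counts per exon bin or detained intron for each library, and the authors' p-values, adjusted p-values and log2 fold changes from a DEXSeq test of each bin relative to its gene, per the file headers. The versions used upstream are not given in the sources used here. No column of counts was left unused (0).

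Counts of all bins of a gene other than detained introns were added up; a read that touches several bins is counted in each. Library totals were 39465746 to 100161560 bin counts (median 49516666). Genes were tested with edgeR 4.0.16 (quasi-likelihood test, filterByExpr, library size scaled by TMM over genes and introns) in R 4.3.3, with Benjamini-Hochberg adjustment over all genes and a threshold of 0.05, in 12 comparisons; the SE is the log2 fold change divided by the square root of F. All 10 members were tested in each. Introns were tested with edgeR and, relative to their gene, with limma 3.58.1 on log2 ratios (pseudocount 1, mean counts of at least 10). DESeq2 1.42.0 was an alternative, beside other scalings, no filter on low counts, all bins, a fit of all libraries, removal of each library's GC trend, and leaving out each library. The script was tested on simulated counts with a fixed spread and no GC trend, intron shift or outlying library. That test did not cover the wider spread of OSMI-2 against DMSO at 6 h. The members and the lists of related genes were chosen with earlier results of these data known. Named genes are the members, OGT and MGEA5, the 2 largest rises and falls past the threshold of each list with mean counts of at least 50 (not all are printed), and the 5 non-members most like the members' mean. A grouping of the members by the end of their protein was not made.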

Additional observations from a re-analysis of the deposited data

Results flagged for a closer look

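In 2 members the effect of OSMI-2 at 6 h differed from that of TMG at 6 h by a test of the difference itself (edgeR interaction, 2 OSMI-2, 3 TMG and 6 DMSO libraries). The difference of log2 fold changes was 1.26 in SDF2L1 and 0.93 in HSPA5, with Benjamini-Hochberg adjusted p of 0.0185 and 0.0272 and the higher value with OSMI-2 in both. In this comparison 19.9% of all genes passed, so 2 of 10 is the share of all genes and not a result about the members. For the alternatives that follow, the share of all genes that passed is not printed here. The number of members that pass was 0 with TMM over genes only and 1 with DESeq2. It was 7 without DMSO library a of the OSMI-2 experiment, and 0 without OSMI-2 library b, TMG library b or c, or DMSO library a of the TMG experiment.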

How the results depend on the processing

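Of 1877 single values under alternatives, 1744 kept their direction and side of the threshold or stayed without a call, 82 lost a call, 49 gained one and 2 reversed; 136 uncalled values changed sign. Of 215 counts, 178 stayed within 1.5 times. The counts of members under alternatives are given without the share of all genes that passed under the same setting. They are therefore not results about the members. The fit of all libraries gave 3 members in place of 0 for OSMI-2 at 6 h, 0 in place of 7 and of 4 for TMG at 2 h and 6 h, 7 in place of 4 for time in DMSO of the OSMI-2 experiment, and 3 in place of 0 for time with OSMI-2 and for the OSMI-2 effect over time. Removing the GC trend gave 2 members for OSMI-2 at 6 h and 2 for its effect over time, both 0 as reported. For time in DMSO of the OSMI-2 experiment plain totals gave 0, TMM over genes 0 and DESeq2 1. For time with OSMI-2, plain totals and DESeq2 each gave 3. For the difference between drugs at 6 h, TMM over genes gave 0 and DESeq2 1 in place of 2.

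Leaving out single libraries gave 0 to 3 members for OSMI-2 at 6 h, 6 to 8 for TMG at 2 h, 0 to 4 for TMG at 6 h, 0 to 6 for time in DMSO of the OSMI-2 experiment, 0 to 2 for time with OSMI-2, 8 for time in DMSO of the TMG experiment, 7 to 8 for time with TMG, 0 to 2 for the OSMI-2 effect over time, and 0 to 1 and 0 to 7 for the difference between drugs at 2 h and 6 h. The 1 was found without library c of DMSO at 2 h in the OSMI-2 experiment. DNAJB9 ran from -0.15 to 0.74 in the difference at 6 h and reversed, from -0.02 to 0.74 (edgeR adjusted p 0.0044), without DMSO 6 h library a of the OSMI-2 experiment. With TMM over introns only, 0 of 3 introns passed and HSP90B1_E015 was at 0.30, which follows from scaling to introns. Other causes were not tested. Where OSMI-2 at 6 h was left with 1 library, that library is assumed to vary like the others. No paired analysis was possible because the columns carry letters and not the replicate numbers of the labels. DNAJB9, with as few as 57 counts in a library, is limited by depth.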
